A study of Mus musculus with 24 samples.

Results

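The 9 genes described here are ones whose levels are used to tell follicular from marginal zone B cells: Fcer2a, Ighd, Cxcr5, Cr2, Cd1d1, Mzb1, Notch2, Dtx1 and S1pr1. They were chosen by symbol, and each matched 1 Ensembl gene among the 45792 in the deposited files. All 9 passed the filter on low values, set at 4 for the mean over 12 libraries, as did 14227 genes in all. RNA sequencing had been carried out on sorted CD11c+ MHC class II+ cells from livers of female C57BL/6 mice with steatohepatitis brought on by 2 weeks on a methionine- and choline-deficient diet. All mice, the empty liposome controls included, had eaten this diet and had received liposomes carrying the dye DiI intravenously 24 hours earlier. Within each liposome the cells were sorted into those with dye (DiI-positive) and those without (DiI-negative). This gave 4 groups of 3 libraries, 2 from mice given liposomes loaded with curcumin, a plant polyphenol, and 2 from mice given empty liposomes. It is not stated whether a library is 1 mouse or a pool, so the spread behind each p-value is that between libraries and may be technical.

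Follicular B cells recirculate through blood and lymph and enter B cell follicles, whereas marginal zone B cells are known from the border of the splenic white pulp, where they take up blood-borne antigen. Follicular cells carry much CD23 and IgD and moderate CD21, and marginal zone cells carry much CD21 and CD1d and little CD23. NOTCH2 signalling, read out by its target Dtx1, drives the marginal zone fate, while CXCR5 and the sphingosine 1-phosphate receptor S1PR1 pull B cells towards the follicle and towards blood-facing sites. Notch2, S1pr1 and Cd1d1 are also expressed outside B cells, Notch2 and Cd1d1 in myeloid cells and S1pr1 in endothelial cells and lymphocytes. Mzb1 is also known from plasma cells and plasmacytoid dendritic cells.

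Values are the authors' log2 values. Their transform is not given in the sources used here, but low genes are drawn together as on a shrunken scale, on which changes of low genes are understated. No source used here gives a scaling by length, so levels are compared between libraries and not between genes. The gate genes were high in all 12 libraries: Itgax (CD11c) lay between 12.01 and 13.48, H2-Ab1 between 17.73 and 18.25 and Cd74 between 18.99 and 19.37. B cell transcripts were present in each library too. The mean of 11 B cell identity genes was 12.95, 12.97 and 11.93 in DiI-positive and 11.66, 11.70 and 11.16 in DiI-negative libraries after curcumin liposomes. After empty liposomes it was 12.82, 13.07 and 12.78 in DiI-positive libraries and 11.59, 11.68 and 11.87 in DiI-negative libraries. Replicate 3 was the lowest of its group in both gates after curcumin, and its DiI-positive library lay about a log2 unit below the other two. In these bulk libraries a different number of B cells and a different amount of RNA per B cell cannot be told apart.

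RefSeq's promoter windows (build GRCm38.p6, 250 bases before to 50 after a gene's start) were held for 4 of the 9 genes. Those of Cr2, Dtx1 and Fcer2a are shown. Cr2 and Fcer2a are the pair that separates the 2 B cell types, and Dtx1 is a Notch target. The windows were searched on both strands for the core bound by RBPJ, the DNA-binding partner of NOTCH2 (GTGGGAA), and for the palindromic core of the B cell factor EBF1 (CCCNNGGG). Capitals mark the matches, and the motifs do not overlap in these windows.
Cr2 (chr1:195176670-195176969, minus strand): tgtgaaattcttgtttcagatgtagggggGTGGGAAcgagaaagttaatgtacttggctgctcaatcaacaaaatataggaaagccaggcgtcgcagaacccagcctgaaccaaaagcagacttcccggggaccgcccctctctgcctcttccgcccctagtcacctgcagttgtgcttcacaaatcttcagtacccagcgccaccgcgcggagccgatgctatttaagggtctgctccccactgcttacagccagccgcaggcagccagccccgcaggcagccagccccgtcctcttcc
Dtx1 (chr5:120711620-120711919, minus strand): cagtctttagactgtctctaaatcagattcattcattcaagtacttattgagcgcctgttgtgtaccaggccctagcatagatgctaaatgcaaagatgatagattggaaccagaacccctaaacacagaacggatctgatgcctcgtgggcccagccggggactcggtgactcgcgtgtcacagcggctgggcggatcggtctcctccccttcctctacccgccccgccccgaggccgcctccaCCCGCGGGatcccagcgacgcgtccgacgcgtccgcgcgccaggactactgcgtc
Fcer2a, the window of its most upstream start (chr8:3694125-3694424, minus strand): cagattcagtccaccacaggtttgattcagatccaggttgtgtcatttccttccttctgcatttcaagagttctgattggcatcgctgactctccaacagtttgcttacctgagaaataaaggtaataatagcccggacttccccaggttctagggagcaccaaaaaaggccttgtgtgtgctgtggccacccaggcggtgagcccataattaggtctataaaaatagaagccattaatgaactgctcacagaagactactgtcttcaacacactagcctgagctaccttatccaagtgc
The RBPJ core was found in the Cr2 window, with its first base at position -221 from the start, and the EBF1 core in the Dtx1 window at -5 and in the Notch2 window at -106. The Dtx1 window lies inside the gene's span (chromosome 5, 120680202 to 120711927), so the start used is downstream of the gene's outermost start. Neither core was found in the 3 windows of Fcer2a. Among all 32851 windows of this length, 6.38% hold the RBPJ core and 13.7% the EBF1 core. A match is a description of these letters only.

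The first question is what set the dye-bearing cells of the sort apart from those without dye. Averaged over both liposomes, 7 of the 9 genes were higher in DiI-positive cells by limma (adjusted p under 0.05 over all 14227 genes), where 5.54% of all genes were higher and 6.56% lower. These were the 3 follicular genes Fcer2a, Ighd and Cxcr5, the marginal zone genes Cr2, Cd1d1 and Mzb1, and S1pr1. Their log2 fold changes lay between 0.83 and 1.32. Notch2 and Dtx1 did not pass. The median log2 fold change of the 9 genes was 1.07, beside 0.01 over all genes tested.

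**Figure D1:**
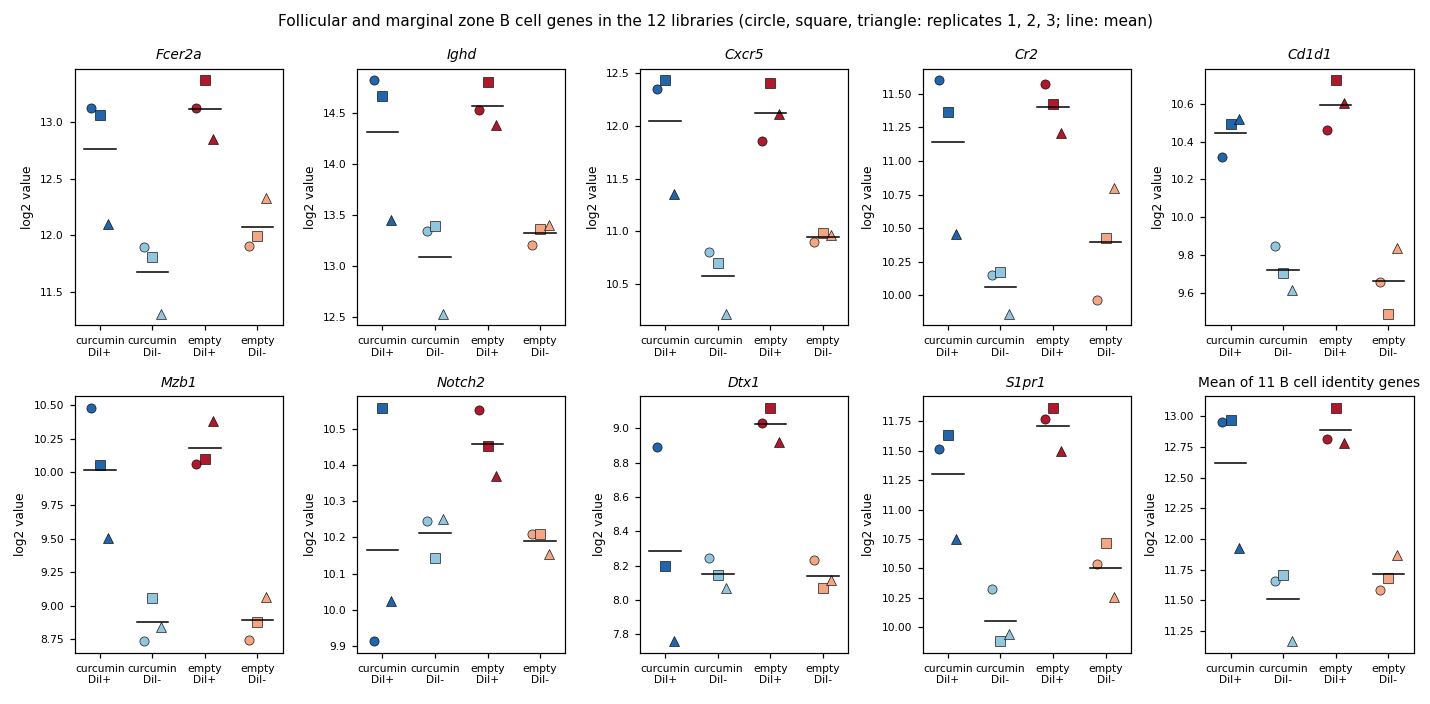
Log2 values of the 9 genes and the mean of 11 B cell identity genes (y axes, each with its own range) in the 4 groups (x axes). Points are libraries, with circles, squares and triangles for replicates 1, 2 and 3, and lines are group means. In the curcumin DiI-positive group the triangle is lowest for Fcer2a (12.10), Ighd, Cxcr5, Cr2, Mzb1, Dtx1, S1pr1 and the B cell mean (11.93) but not for Cd1d1 (10.52) or Notch2 (10.03).

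Fcer2a encodes CD23, the low-affinity IgE receptor of follicular B cells (chromosome 8, 3681737 to 3694175, GRCm38). With curcumin liposomes Fcer2a was at 13.13, 13.06 and 12.10 in DiI-positive and 11.90, 11.81 and 11.31 in DiI-negative libraries. After empty liposomes it stood at 13.13, 13.37 and 12.85 in DiI-positive and 11.91, 11.99 and 12.32 in DiI-negative libraries. The gates did not overlap under either liposome, and curcumin DiI-positive replicate 3 lay within the range of the empty DiI-negative libraries. The log2 fold change was 1.07 ± 0.18 (SE) averaged over liposomes (limma adjusted p = 0.0040), 1.09 ± 0.26 after curcumin (adjusted p = 0.047) and 1.04 ± 0.26 after empty liposomes (adjusted p = 0.058). After curcumin it passed by a narrow margin, and it did not pass in 11 of the 12 fits that left out 1 library.

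Ighd encodes the constant region of IgD, the antigen receptor class that mature follicular B cells carry beside IgM (chromosome 12, 113406604 to 113416324). The curcumin values of Ighd were 14.82, 14.67 and 13.46 in DiI-positive and 13.35, 13.40 and 12.54 in DiI-negative libraries. It stood at 14.53, 14.80 and 14.38 in DiI-positive and 13.21, 13.36 and 13.41 in DiI-negative libraries after empty liposomes. Every DiI-positive library was above every DiI-negative one, replicate 3 after curcumin by a small margin over the highest of them. The difference was 1.24 ± 0.23 averaged over liposomes (limma adjusted p = 0.0053), and did not pass under curcumin (1.22 ± 0.32, adjusted p = 0.065) or empty liposomes alone (1.25 ± 0.32, adjusted p = 0.063).

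Cxcr5, the receptor for the follicle chemokine CXCL13 (chromosome 9, 44511787 to 44561877), had the largest averaged difference of the 9. In mice given curcumin liposomes Cxcr5 reached 12.35, 12.43 and 11.35 in DiI-positive and 10.80, 10.70 and 10.22 in DiI-negative libraries. It stood at 11.85, 12.41 and 12.11 in DiI-positive and 10.90, 10.99 and 10.97 in DiI-negative libraries after empty liposomes. The 6 DiI-positive libraries were all above the 6 DiI-negative ones. The log2 fold change was 1.47 ± 0.26 after curcumin (limma adjusted p = 0.015), 1.18 ± 0.26 after empty (adjusted p = 0.037) and 1.32 ± 0.18 averaged over liposomes (adjusted p = 0.0013).

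Cr2 encodes CD21 and CD35, the complement receptors with which marginal zone B cells take up opsonised antigen (chromosome 1, 195136811 to 195176716). Cr2 in the curcumin groups was at 11.60, 11.36 and 10.46 in DiI-positive and 10.15, 10.17 and 9.86 in DiI-negative libraries. It stood at 11.57, 11.43 and 11.21 in DiI-positive and 9.96, 10.42 and 10.80 in DiI-negative libraries after empty liposomes. The gates did not overlap within either liposome, but curcumin DiI-positive replicate 3 lay below empty DiI-negative replicate 3. Cr2 was higher in DiI-positive cells averaged over liposomes (1.04 ± 0.19, limma adjusted p = 0.0060) and did not pass after curcumin (1.08 ± 0.28, adjusted p = 0.059) or empty liposomes (1.00 ± 0.28, adjusted p = 0.078).

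Cd1d1, which presents lipid antigens to natural killer T cells and is abundant on marginal zone B cells (chromosome 3, 86995834 to 86999441), had the smallest spread of the 7. Curcumin liposomes gave Cd1d1 values of 10.32, 10.49 and 10.52 in DiI-positive and 9.85, 9.71 and 9.61 in DiI-negative libraries. It stood at 10.46, 10.73 and 10.60 in DiI-positive and 9.66, 9.49 and 9.84 in DiI-negative libraries after empty liposomes. Unlike the B cell mean, it was not low in curcumin DiI-positive replicate 3. The log2 fold change was 0.72 ± 0.13 after curcumin (limma adjusted p = 0.014), 0.93 ± 0.13 after empty (adjusted p = 0.0047) and 0.83 ± 0.09 averaged over liposomes (adjusted p = 0.00032). Whether reads of the near-identical Cd1d2, which was below the filter, were split from Cd1d1 is not given in the sources used here.

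Mzb1, an endoplasmic reticulum cochaperone for antibody assembly that is abundant in marginal zone and B-1 B cells (chromosome 18, 35647267 to 35649367), also separated the gates. For the curcumin groups Mzb1 was measured at 10.48, 10.05 and 9.51 in DiI-positive and 8.73, 9.06 and 8.84 in DiI-negative libraries. It stood at 10.06, 10.10 and 10.38 in DiI-positive and 8.74, 8.88 and 9.07 in DiI-negative libraries after empty liposomes. All DiI-positive libraries were above all DiI-negative ones. The difference was 1.14 ± 0.21 after curcumin (limma adjusted p = 0.019), 1.29 ± 0.21 after empty (adjusted p = 0.012) and 1.21 ± 0.15 averaged over liposomes (adjusted p = 0.00070).

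S1pr1, the receptor that draws lymphocytes towards sphingosine 1-phosphate in blood and lymph (chromosome 3, 115710433 to 115715072), differed by a similar size. Under curcumin liposomes S1pr1 lay at 11.52, 11.63 and 10.75 in DiI-positive and 10.33, 9.88 and 9.94 in DiI-negative libraries. It stood at 11.77, 11.86 and 11.49 in DiI-positive and 10.54, 10.72 and 10.26 in DiI-negative libraries after empty liposomes. The gates did not overlap, and replicate 3 was again the lowest DiI-positive library after curcumin. The log2 fold change was 1.25 ± 0.22 after curcumin (limma adjusted p = 0.015), 1.21 ± 0.22 after empty (adjusted p = 0.017) and 1.23 ± 0.16 averaged over liposomes (adjusted p = 0.00086).

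Notch2, the receptor whose signal directs B cells to the marginal zone (chromosome 3, 98013527 to 98150361), was close to level across the groups. Curcumin-group values of Notch2 were 9.91, 10.56 and 10.03 in DiI-positive and 10.24, 10.14 and 10.25 in DiI-negative libraries. It stood at 10.55, 10.45 and 10.37 in DiI-positive and 10.21, 10.21 and 10.15 in DiI-negative libraries after empty liposomes. The curcumin gates overlapped, with DiI-positive replicate 2 above and replicates 1 and 3 below all DiI-negative libraries, and the empty DiI-positive libraries were above their DiI-negative counterparts by a narrow margin. The log2 fold change was -0.05 ± 0.15 after curcumin (limma adjusted p = 0.90), 0.27 ± 0.15 after empty (adjusted p = 0.39) and 0.11 ± 0.11 averaged over liposomes (adjusted p = 0.55).

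Dtx1, the E3 ligase deltex 1, is induced by NOTCH2 in marginal zone B cells (chromosome 5, 120680202 to 120711927). After curcumin liposomes it stood at 8.89, 8.20 and 7.76 in DiI-positive and 8.24, 8.15 and 8.07 in DiI-negative libraries, where DiI-positive replicate 1 was near the empty DiI-positive level and replicate 3 was the lowest of all 12. After empty liposomes it stood at 9.03, 9.12 and 8.92 in DiI-positive and 8.23, 8.07 and 8.12 in DiI-negative libraries, with no overlap. The log2 fold change was 0.13 ± 0.23 after curcumin (limma adjusted p = 0.81) and 0.88 ± 0.23 after empty liposomes (adjusted p = 0.063). Averaged over liposomes it was 0.51 ± 0.16 and did not pass (adjusted p = 0.063). Leaving out curcumin DiI-positive replicate 3, the averaged difference was 0.64 and passed (adjusted p = 0.0080), and leaving out replicate 1 of that group it was 0.35.

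**Figure D2:**
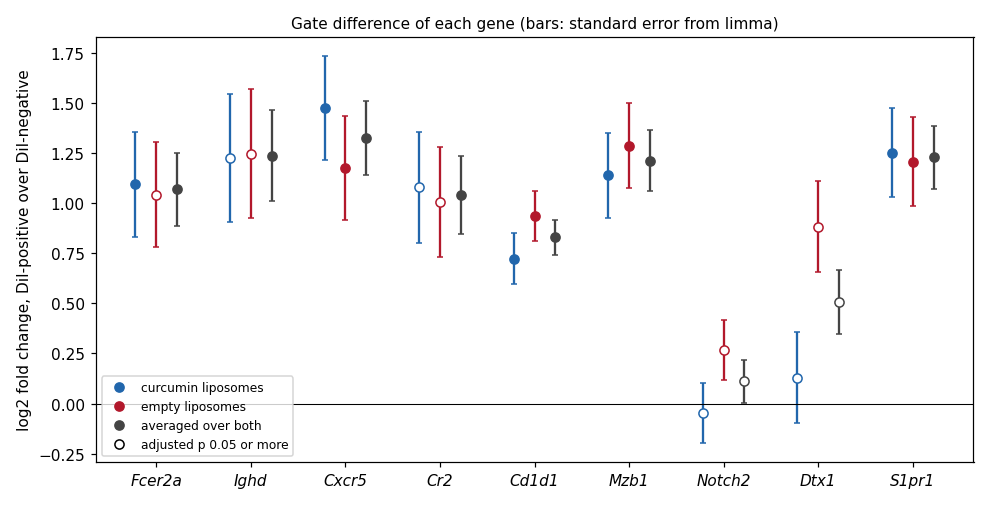
Log2 fold change of DiI-positive over DiI-negative cells (y axis) for each of the 9 genes (x axis) after curcumin liposomes, after empty liposomes and averaged over both. Bars are standard errors from limma, filled points have an adjusted p under 0.05, and the averaged values run from 0.11 for Notch2 to 1.32 for Cxcr5.

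Taken by liposome, 5 of the 9 genes passed after curcumin liposomes (Cxcr5, Cd1d1, Mzb1, S1pr1 and Fcer2a), where 1.41% of all genes were higher, and 4 passed after empty liposomes (these but Fcer2a), where 1.32% were higher. After curcumin liposomes the libraries of the gates did not overlap for 7 of 9 genes, against 9.88% of all genes in that direction. After empty liposomes they did not overlap for 9 of 9, against 12.3%. Between all 6 DiI-positive and all 6 DiI-negative libraries there was no overlap for 5 of 9 (Ighd, Cxcr5, Cd1d1, Mzb1 and S1pr1), against 2.52%. None of the 9 passed the limma test of whether the gate difference itself differed between liposomes, for which 0 of 14227 genes passed and 527 had an unadjusted p under 0.05. Of the 9, Dtx1 had the largest such difference (-0.75 ± 0.32, limma adjusted p = 0.999).

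The counts by liposome rested on few libraries. No fit that left out 1 library gave the count of 5 after curcumin liposomes. It was 0 without curcumin DiI-positive replicate 2 or with only its 6 libraries fitted, 3 without curcumin DiI-negative replicate 1 or 3, 7 without curcumin DiI-positive replicate 3, and 4 without any other library. The count after empty liposomes was 1 without empty DiI-negative replicate 1, and 2 without empty DiI-negative replicate 2 or 3 or empty DiI-positive replicate 1 or 2. It was 7 without curcumin DiI-positive replicate 1, 8 without replicate 3 of that group and 8 in a fit of the 6 libraries alone. The count averaged over liposomes was 7 without any 1 library, except 8 without curcumin DiI-positive replicate 3.

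To set the 9 genes against B cell content, the mean of the 11 B cell identity genes was subtracted in each library. Relative to that mean, Notch2 and Dtx1 were lower in DiI-positive cells and the other 7 genes were not called. Of all genes tested 97.2% were called lower on this scale, and 45.4% were lower in every DiI-positive than in any DiI-negative library, so a lower call is the background here. All genes share the error of the subtracted mean, which limma's moderation pools as if genes were independent, and its p-values are unreliable here. Values from each gene's own spread, a setting chosen after seeing the data, are therefore given beside them for the fit of all 12 libraries. Notch2 relative to the B cell mean lay at -3.04, -2.41 and -1.90 in DiI-positive and -1.41, -1.56 and -0.91 in DiI-negative libraries after curcumin liposomes. After empty liposomes it lay at -2.26, -2.62 and -2.41 in DiI-positive and -1.38, -1.47 and -1.72 in DiI-negative libraries, and the gates did not overlap under either liposome (-1.03 ± 0.25, limma adjusted p = 7.5e-05, and -1.03 ± 0.20 with adjusted p = 0.0022 without moderation).

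Dtx1 relative to the B cell mean lay at -4.06, -4.77 and -4.17 in DiI-positive and -3.41, -3.56 and -3.10 in DiI-negative libraries after curcumin liposomes. After empty liposomes it lay at -3.78, -3.95 and -3.86 in DiI-positive and -3.35, -3.61 and -3.76 in DiI-negative libraries. Again no DiI-positive library reached a DiI-negative one (-0.64 ± 0.26, limma adjusted p = 0.017, and -0.64 ± 0.14 with adjusted p = 0.0036 without moderation). Without empty DiI-negative replicate 1 the moderated adjusted p was 0.054. The gap was wider after curcumin and narrow after empty liposomes.

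Fcer2a followed the B cell mean closely, with relative values of 0.17, 0.09 and 0.17 in DiI-positive and 0.24, 0.10 and 0.14 in DiI-negative libraries after curcumin liposomes. After empty liposomes they were 0.31, 0.30 and 0.07 in DiI-positive and 0.32, 0.31 and 0.45 in DiI-negative libraries. The relative difference between gates was -0.07 ± 0.23 for Fcer2a (limma adjusted p = 0.75), 0.09 ± 0.22 for Ighd and -0.10 ± 0.24 for Cr2. It was 0.07 ± 0.25 for Mzb1 and 0.09 ± 0.24 for S1pr1. Standard errors from each gene's own spread were smaller, at 0.05 for Fcer2a, 0.08 for Ighd and 0.11 for Cr2. They were 0.14 for Mzb1 and 0.15 for S1pr1, and none of these genes passed without moderation (adjusted p from 0.19 to 0.65). A p that misses the threshold does not show that these genes and the B cell mean moved by the same amount. Cxcr5 was at 0.18 ± 0.23 (limma adjusted p = 0.44) and passed only without moderation (0.18 ± 0.07, adjusted p = 0.027). Cd1d1 was at -0.31 ± 0.25 (limma adjusted p = 0.21), and at -0.31 ± 0.21 with adjusted p = 0.17 without moderation. Leaving out curcumin DiI-positive replicate 3, it was at -0.50 (limma adjusted p = 0.0044). That p is from the moderated fit alone, in which a lower call is the background.

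**Figure D3:**
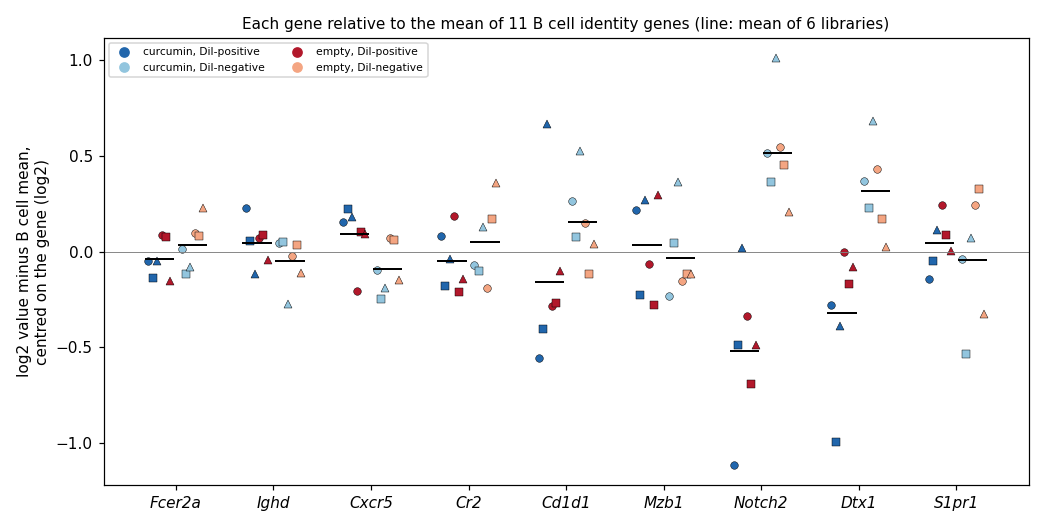
Log2 value of each of the 9 genes minus the mean of 11 B cell identity genes in the same library, centred on the gene's mean over the 12 libraries (y axis, log2). Points are libraries (circles, squares and triangles for replicates 1, 2 and 3), lines are means of 6 libraries, and DiI-positive libraries stand left of DiI-negative ones; the gates separate fully for Notch2 and Dtx1 only among the 9.

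The RNA ratio of Fcer2a to Cr2, which encode the CD23 and CD21 pair by which follicular and marginal zone B cells are sorted, was nearly level. As a log2 difference within a library it was 1.53, 1.70 and 1.64 in DiI-positive and 1.74, 1.64 and 1.44 in DiI-negative libraries after curcumin liposomes. After empty liposomes it was 1.55, 1.94 and 1.65 in DiI-positive and 1.94, 1.57 and 1.52 in DiI-negative libraries. The means were 1.67 ± 0.15 (SD, n = 6) in DiI-positive and 1.64 ± 0.18 (SD, n = 6) in DiI-negative libraries. The difference of 0.03 was smaller than either spread (exact permutation test within liposome, two-sided, p = 0.765, where 0.005 is the smallest p possible). Surface CD23 and CD21 were not measured, so the RNA ratio does not give the mix of the 2 B cell types.

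The genes whose centred values over the 12 libraries lay nearest to a member's, by root mean square difference in log2 units, were mostly B cell genes for the follicular members. For Ighd they were Cd79b (0.073), Iglc2 (0.089) and Cd79a (0.093), parts of the B cell antigen receptor. Those of Fcer2a included Tspan32 (0.119) and Gm8369 (0.137), and those of Cxcr5 included the kinase Blk (0.157) and Ms4a1 (0.172), which encodes CD20. S1pr1 lay nearest to Ebf1 (0.126), Bank1 (0.167) and Mcoln2 (0.189), and Cr2 to Cd2 (0.150), Iglv1 (0.163) and 2010309G21Rik (0.179). Mzb1 lay nearest to Slc37a2 (0.160), Cpm (0.167) and Ly6d (0.176).

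The other members had different neighbours. Cd1d1 lay nearest to Gm30211 (0.141), P2ry12 (0.144) and Rubcn (0.165). Notch2 lay nearest to Mettl3 (0.070), Gm17705 (0.088) and Gm20707 (0.093), and Dtx1 to Dmxl1 (0.200), Ice2 (0.204) and Ppcdc (0.212). For genes that vary little, such as Notch2, small differences are easily reached. Among the 9 themselves the closest pair was Fcer2a and Cr2 (0.151) and the most distant Cxcr5 and Notch2 (0.695).

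Lists of related genes were compared between the gates, averaged over liposomes, where 5.54% of all genes tested were higher and 6.56% lower with a median of 0.01. Differences between lists were not tested, and in a short list a call or a pair of calls is not read as a result about the list. All 11 B cell identity genes were higher in DiI-positive cells (median 1.20), among them the transcription factor Ebf1 (1.09 ± 0.13), Fcrla (1.08 ± 0.14) and the scaffold Bank1 (1.23 ± 0.18), as were all 4 of a core set drawn from them. Of 10 other follicular genes 4 were higher (median 0.47): the complement regulator Cd55 (1.36 ± 0.18), the chemokine receptor Ccr7 (1.06 ± 0.14), the BAFF receptor Tnfrsf13c (0.91 ± 0.17) and Foxp1 (0.58 ± 0.09). Of 5 other marginal zone genes tested, Cd36 was higher (0.97 ± 0.26) and Plac8 lower (-0.77 ± 0.14), with a median of 0.26, and S1pr3 was below the filter. Cd36 and Plac8 are also expressed by myeloid cells, and which cells of the sort carried the called genes of either list was not tested. Limma adjusted p-values of the genes named as higher or lower here lay under 0.05.

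Of 10 B-1 cell genes none was higher and Ahr (-0.95 ± 0.24) and Itgam (-0.54 ± 0.10) were lower, both also known from myeloid cells. Bhlhe41 (0.37 ± 0.11, limma adjusted p = 0.058) and Spn (-0.33 ± 0.11, limma adjusted p = 0.075) lay in opposite directions and did not pass. Of 9 plasma cell genes tested 3 were higher, the joining chain Jchain (2.09 ± 0.35), the B cell coactivator Pou2af1 (1.06 ± 0.19) and Fkbp11 (0.36 ± 0.11, chosen after its value was seen). In the same list Xbp1 (-0.38 ± 0.09) and Edem1 (-0.82 ± 0.13), of the secretory pathway, were lower.

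Of 29 Notch pathway genes tested 2 were higher and 3 lower, with a median of -0.05, shares near those over all genes (5.54% higher and 6.56% lower), so the count is no result about the pathway. Maml2, a coactivator of the Notch complex (0.64 ± 0.11), and the gamma-secretase subunit Psen2 (0.40 ± 0.11, chosen after its value was seen) were higher. The DNA-binding partner Rbpj (-0.55 ± 0.12) and the glycosyltransferases Lfng (-0.42 ± 0.11) and Rfng (-0.67 ± 0.15) were lower. Dll3 and Hey2 were listed at 0 in all libraries. Limma adjusted p-values of the 5 called genes lay between 0.0044 and 0.043.

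Of 11 sphingosine 1-phosphate genes tested, the receptor S1pr4 (0.57 ± 0.14) and Cd69 (0.77 ± 0.14), a membrane protein that pulls S1PR1 from the surface, were higher. The phosphatase Sgpp1 (-0.73 ± 0.19) and the G protein subunit Gnai2 (-0.30 ± 0.06) were lower (limma adjusted p from 0.0052 to 0.026 for the 4). Of 10 follicle homing genes tested Ccr7, lymphotoxin beta Ltb (0.80 ± 0.17) and lymphotoxin alpha Lta (0.52 ± 0.14) were higher. The ligand of CXCR5, Cxcl13, was at 1.10 ± 0.41 and did not pass (limma adjusted p = 0.11). Of 9 partners of CD21 and CD23, 2 were higher, among them the tetraspanin Cd81 (1.28 ± 0.13), and Ifitm1 (-0.84 ± 0.19) was lower. C3, whose fragments CD21 binds, was at -0.62 ± 0.19 and did not pass (limma adjusted p = 0.052). Of 7 CD1d lipid presentation genes tested only Gm2a, a lysosomal lipid transfer protein, was called, lower in DiI-positive cells (-0.62 ± 0.10, limma adjusted p = 0.0029).

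Markers of other cells also differed between DiI-positive and DiI-negative cells, some higher and some lower, and their part in the results was not tested. Of 10 Kupffer cell genes 9 were higher in DiI-positive cells, led by Clec4f (4.52 ± 0.40), Marco (4.05 ± 0.54), Vsig4 (3.32 ± 0.35) and Cd5l (3.31 ± 0.35). The log2 of their summed level ran from 16.29 to 16.88 in DiI-positive and from 14.09 to 15.03 in DiI-negative libraries after curcumin liposomes, and from 15.66 to 16.95 and from 14.49 to 15.15 in the same gates after empty liposomes. Of 10 endothelial genes, which bear on S1pr1, 3 were higher, Pecam1 (0.99 ± 0.09), Stab1 (0.90 ± 0.16) and Stab2 (3.06 ± 0.85). Their log2 summed level ran from 12.94 to 14.24 in DiI-positive and from 12.10 to 12.40 in DiI-negative libraries after curcumin liposomes, and from 13.05 to 13.33 and from 12.32 to 12.49 in the same gates after empty liposomes. No gene of these lists was listed at 0, and which cells of the sort carried these transcripts was not tested.

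Of 8 plasmacytoid dendritic cell genes, which bear on Mzb1, Ly6d alone was called (1.10 ± 0.15), a gene also expressed by B cells. The list's log2 summed level ran from 13.34 to 13.68 in DiI-positive and from 12.91 to 13.67 in DiI-negative libraries after curcumin liposomes. After empty liposomes it ran from 13.19 to 13.34 and from 12.52 to 12.93 in the same gates. The list's median log2 fold change was below 0, at -0.27 averaged over liposomes and -0.34 after empty liposomes. A sum is weighted to the highest values, and which genes set it was not tested. Of 8 cDC2 genes, which bear on Notch2, 4 were lower, which were Itgam, also in the B-1 list, and the lectins Cd209a (-2.03 ± 0.20), Clec10a (-1.31 ± 0.17) and Mgl2 (-1.03 ± 0.30). Their log2 summed level ran from 14.89 to 15.39 in DiI-positive and from 15.54 to 15.62 in DiI-negative libraries after curcumin liposomes, and from 15.05 to 15.30 and from 15.40 to 15.69 in the same gates after empty liposomes. Lower too were 4 of 10 T and NK cell genes, among them Klrd1 (-1.66 ± 0.17), and 4 of 8 monocyte genes, among them Ccr2 (-0.66 ± 0.08). The T and NK list, which also bears on S1pr1, had a log2 summed level from 11.23 to 11.92 in DiI-positive and from 12.52 to 12.76 in DiI-negative libraries after curcumin liposomes, and from 11.47 to 11.89 and from 12.89 to 13.10 in the same gates after empty liposomes. Of 8 cDC1 genes Batf3 was lower (-0.54 ± 0.12) and Cadm1 higher (0.73 ± 0.21), and of 3 follicular dendritic cell genes tested none was called.

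The second question is what the curcumin cargo changed within a gate. None of the 9 genes passed in either gate. In DiI-positive cells 0 of 14227 genes passed the limma test (1165 at an unadjusted p under 0.05), and in DiI-negative cells 0 passed (469 at an unadjusted p under 0.05). The median log2 fold change of the 9 was -0.26 in DiI-positive and -0.23 in DiI-negative cells, beside 0.00 over all genes in each, and the B cell identity list had medians of -0.25 and -0.22.

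Dtx1 had the smallest p of the 9 in DiI-positive cells, with means of 8.28 ± 0.57 in the curcumin group and 9.02 ± 0.10 in the empty liposome group (SD, n = 3 each). The libraries did not overlap, in a direction in which 5.09% of all genes did not (-0.74 ± 0.23, limma adjusted p = 0.46). Leaving out 1 library never brought it past the threshold (limma adjusted p from 0.090 to 0.77). It was -1.05 without curcumin DiI-positive replicate 1 and -0.48 without replicate 3. The next differences in DiI-positive cells were S1pr1 (-0.41 ± 0.22), Fcer2a (-0.35 ± 0.26) and Notch2 (-0.29 ± 0.15), with limma adjusted p from 0.64 to 0.75. Cxcr5 was at -0.08 ± 0.26 and at 0.27 without curcumin DiI-positive replicate 3.

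In DiI-negative cells Fcer2a and Cxcr5 were lower after curcumin in every library than in any library after empty liposomes (11.67 ± 0.32 against 12.07 ± 0.22 for Fcer2a, and 10.57 ± 0.31 against 10.95 ± 0.05 for Cxcr5; SD, n = 3). For Fcer2a the margin was narrow, with 11.90 in the highest curcumin and 11.91 in the lowest empty liposome library. No overlap in this direction was seen for these 2 of the 9 genes, against 5.5% of all genes. Their log2 fold changes were -0.40 ± 0.26 and -0.38 ± 0.26 (limma adjusted p = 1.00 for each). S1pr1 was at -0.45 ± 0.22, and Dtx1 (0.01 ± 0.23), Notch2 (0.02 ± 0.15), Mzb1 (-0.02 ± 0.21) and Cd1d1 (0.06 ± 0.13) were close to 0.

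**Figure D4:**
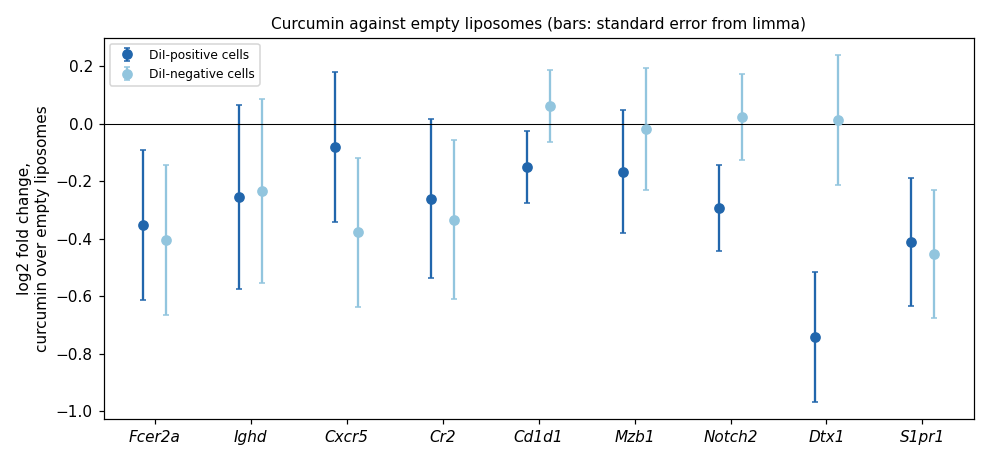
Log2 fold change of curcumin over empty liposomes (y axis) for each of the 9 genes (x axis) in DiI-positive and DiI-negative cells, with standard errors from limma as bars. No value has an adjusted p under 0.05, and the one farthest from 0 is Dtx1 in DiI-positive cells at -0.74.

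By group mean, the order from high to low was empty DiI-positive, curcumin DiI-positive, empty DiI-negative and curcumin DiI-negative for Fcer2a, Ighd, Cxcr5, Cr2, Mzb1 and S1pr1. For Cd1d1 and Dtx1 the last 2 groups changed places, and their library ranges overlapped. For 7 of these genes, all but Dtx1, the ranges of the first 2 groups overlapped, so their order is not beyond the spread. The middle pair of ranges overlapped for Fcer2a, Cr2 and Dtx1. For Dtx1 the empty DiI-positive libraries stood above all others. For Notch2 the empty DiI-positive mean was highest, and the ranges of the other 3 groups overlapped from one to the next.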

How the data were processed

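The authors deposited 1 column of gene-level log2 values per library, and a code that 2 of the 24 sample records share was taken as 1 library, giving 12. In the codes, EL or CL was read as the liposome and P or N as the DiI gate, from the design text. Per the labels' protocols, cDNA was amplified by SMARTer chemistry and Nextera XT libraries were sequenced. Per the submitters' processing notes, the build was GRCm38 and the tools were DESeq2 1.8.1 and STAR 2.4.0d; no source used here gives the counter, annotation or transform. The deposited values have the form of a regularized log: they run from -3.62 to 19.37, 20918 genes are at 0 throughout, and low genes are drawn together. Depth is unknown, so precision is given as the spread between libraries.

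Symbols and positions came from GENCODE M21 (GRCm38), which named 99.3% of the genes not at 0. Genes with a mean of at least 4 were fitted with limma 3.58.1 in R 4.3.3, with 4 group means, a trended prior and Benjamini-Hochberg adjusted p over 14227 genes. This model was first tested on simulated data. All 9 genes are named in every comparison, of each of 19 lists up to 4 genes with the smallest p in the averaged comparison, and 3 nearest genes per member, except for 1 gene that is not reported here. Genes and lists were chosen with earlier results of these data known. Alternatives were no filter, median centring, a replicate block, fitting only the libraries compared, another B cell set, no variance moderation and leaving out each library.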

Additional observations from a re-analysis of the deposited data

How the results depend on the processing

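In the comparison averaged over liposomes the same 7 genes passed with no filter, with library median centring and with the replicate number as a block, and the count ran from 7 to 8 when 1 library was left out. After curcumin liposomes the count of 5 was 0 with only the libraries compared and ran from 0 to 7 without 1 library. After empty liposomes the count of 4 was 8 with only the libraries compared and ran from 1 to 8 without 1 library. The cause was not tested. Relative to the B cell genes the count of 2 was 2 with the 4-gene set and 3 without moderation, and ran from 1 to 3 without 1 library. No called value changed sign. Of the 324 values of the 9 genes in the 2 curcumin comparisons and the difference between liposomes, 35 changed sign when 1 library was left out. Fcer2a minus Cr2 stayed uncalled throughout, with differences from -0.03 to 0.09 without 1 library.

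With the replicate block the counts were 6 after curcumin and 6 after empty liposomes, and 7 averaged; the Fcer2a minus Cr2 difference was 0.03 when paired (exact sign-flip p = 0.875). Deviations of same-numbered libraries correlated above 0.1 in 2 of 18 pairs, and the numbers were not taken to pair the samples in the main fit. Between the gates of the same liposome they correlated at 0.08, 0.004 and 0.08 after empty and 0.07, 0.03 and 0.33 after curcumin liposomes. These values do not settle whether the gates were paired. The limma block was shared by both liposomes, and pairing within a liposome was not fitted with it. Over all genes the count of 437 after curcumin liposomes was 248 with no filter and 40 with only the libraries compared, and ran from 114 (without curcumin DiI-negative replicate 1) to 1088 (without curcumin DiI-positive replicate 3). The count of 419 after empty liposomes was 263 with no filter and 617 with only the libraries compared, and ran from 85 (without empty DiI-negative replicate 1) to 659 (without curcumin DiI-positive replicate 3). Without that same library 4 genes passed for curcumin in DiI-positive cells and 2 for the difference between liposomes, against 0 with all libraries. Without curcumin DiI-positive replicate 1 or 2 the counts were 3 and 1. Without empty DiI-positive replicate 3 they were 2 and 1. Relative to the B cell genes the count over all genes was 13855, and 24520 with no filter, where more genes are tested. The apparently shrunken scale, unknown depth and 3 libraries per group limit what small differences can show.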
